A study of Drosophila melanogaster with 19 samples.

Results

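The genes of mitochondrial ribosomal proteins were followed through the RNA libraries of Drosophila S2R+ cells depleted of single subunits of the dREAM complex. They were taken from the deposited table by their symbols, as every gene whose symbol starts with mRpL (large ribosomal subunit) or mRpS (small ribosomal subunit). This gave 73 genes of the 15021 in the table, 47 for the large subunit and 26 for the small one, with 100 transcripts between them. S2R+ is an embryonic cell line with features of blood cells. Cells took up double-stranded RNA (dsRNA) during 4 days at 25 °C, given at 30 μg/ml and diluted to 10 μg/ml, against GFP (the control, a sequence that the fly lacks), mip40, mip120, mip130 or E2F2. Each group had 2 RNA libraries except E2F2, which had 1, and all groups share the same line and the same dsRNA regimen. Every library is from a mixed population of a single line, so a fall in RNA per cell and a loss of some cells cannot be told apart. The labels do not say whether the libraries of a group are of separate cultures; p-values below rest on the spread between libraries, and that spread may be technical. The series' 9 chromatin samples and its naked DNA sample were not analysed here.

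The mitochondrial ribosome translates the few messenger RNAs of the mitochondrial genome, which encode core subunits of the respiratory chain and of ATP synthase. Its ribosomal RNAs come from the mitochondrial genome, while all of its proteins are encoded in the nucleus, made in the cytosol and imported. Some of these proteins have a counterpart in the bacterial ribosome and others were added in the mitochondrial lineage. dREAM holds a repressor E2F, a retinoblastoma-family protein, Myb and Myb-interacting (mip) proteins on chromatin; mip40, mip120 and mip130 are the fly counterparts of LIN37, LIN54 and LIN9, and E2F2 is the fly's repressor E2F.

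RNA of the dsRNA targets was lower in their own libraries than in the GFP libraries, with mip120 lowered only in part. The mip40 gene fell from 34.0 and 31.1 FPKM (fragments per kilobase of transcript, scaled for library size) in the GFP libraries to 1.45 and 1.12 in the mip40 RNAi libraries. The mip120 gene was at 28.5 and 30.0 FPKM in its own RNAi libraries, beside 52.5 and 45.6 in the GFP libraries. The mip130 gene was at 5.00 and 4.46 FPKM, beside 27.7 and 29.8, and E2f2 at 2.54 FPKM in the single E2F2 RNAi library, beside 25.8 and 27.9. Of 10 markers of the line and of blood cells, frizzled (fz, 9.50 to 14.4 FPKM), srp (78.7 to 118), ush (70.9 to 111) and Sr-CI (29.7 to 39.9) were present in every library, and Hml and nimC1 stayed at or under 0.443 FPKM. Levels of ush, fz and srp also differed between groups. ush was at 100 and 111 FPKM in the GFP libraries and 99.6 and 106 in mip40. It was lower in mip120 (74.0 and 70.9), mip130 (83.0 and 77.6) and E2F2 RNAi (86.5). fz was lowest in mip120 RNAi, at 9.50 and 9.56 FPKM, beside 13.6 and 13.9 in the GFP libraries. srp was at 83.4 and 78.7 FPKM in mip130 RNAi, beside 96.0 and 118 in the GFP libraries. The other 4 markers moved with the groups as well. Pxn was at 10.6 and 9.58 FPKM in the GFP libraries, 20.3 to 28.9 in the mip libraries and 42.5 in the E2F2 library. drpr was at 4.08 and 3.32 FPKM in the GFP libraries, 8.42 to 10.2 in the mip libraries and 2.27 in the E2F2 library. The collagen genes Cg25C and vkg were lowest in mip120 RNAi, at 10.4 and 9.84 FPKM and at 5.46 and 4.74, beside 18.5 and 21.7 and 9.45 and 11 in the GFP libraries. All 3 germ cell genes looked at were higher in the mip libraries than in the GFP libraries. nos was at 0.334 and 0.357 FPKM in the GFP libraries, 9.22 to 23.6 in the mip libraries and 2.64 in the E2F2 library. bam was at 1.43 FPKM in both GFP libraries, 6.30 to 10.1 in the mip libraries and 1.33 in the E2F2 library. vas was at 0.114 and 0.0261 FPKM in the GFP libraries, 0.260 to 2.55 in the mip libraries and highest, at 6.48, in the E2F2 library. Muscle and fat body markers stayed under 1 FPKM, apart from TpnC73F, which lay between 1.27 and 4.43 FPKM. The neuronal gene elav was listed at 23.4 to 40.6 FPKM, with Syt1 and n-syb under 1 FPKM. The part of these markers in the results below was not tested. Counts of fragments are not held in FPKM, so depth is unknown.

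All 73 genes were expressed in every library. No value was under 1 FPKM; the lowest was 6.92 FPKM, for mRpL36 in the second mip40 RNAi library. Mean levels over the 9 libraries ran from 11.2 FPKM for mRpL36 to 231 FPKM for mRpS5, a 20.7-fold span, with a median of 37.0 for the large subunit and 37.0 for the small one. The median tested gene lay at 21.7 FPKM, and 65.6% of tested genes lay below the median member. Most members, 55 of them, were between 20 and 100 FPKM, with 13 below and 5 above. The 5 most abundant were mRpS5 (231 FPKM), mRpL23 (183), mRpS9 (151), mRpL55 (123) and mRpS7 (115). Most of the FPKM of mRpS9, 57.0% to 77.3% by library, belonged to a new isoform; with known transcripts alone its mean was 44.5 FPKM and it ranked 27 of 73. mRpS5, mRpS9 and mRpS7 are counterparts of bacterial small-subunit proteins that contact the messenger RNA path or the head of the subunit, and mRpL23 that of a protein at the exit of the peptide tunnel. The 5 least abundant were mRpL27 (13.6 FPKM), mRpL42 (12.9), mRpL11 (11.8), mRpL43 (11.8) and mRpL36 (11.2). Subunits of 1 particle were thus listed at unequal RNA levels, as FPKM per transcript length.

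**Figure D1:**
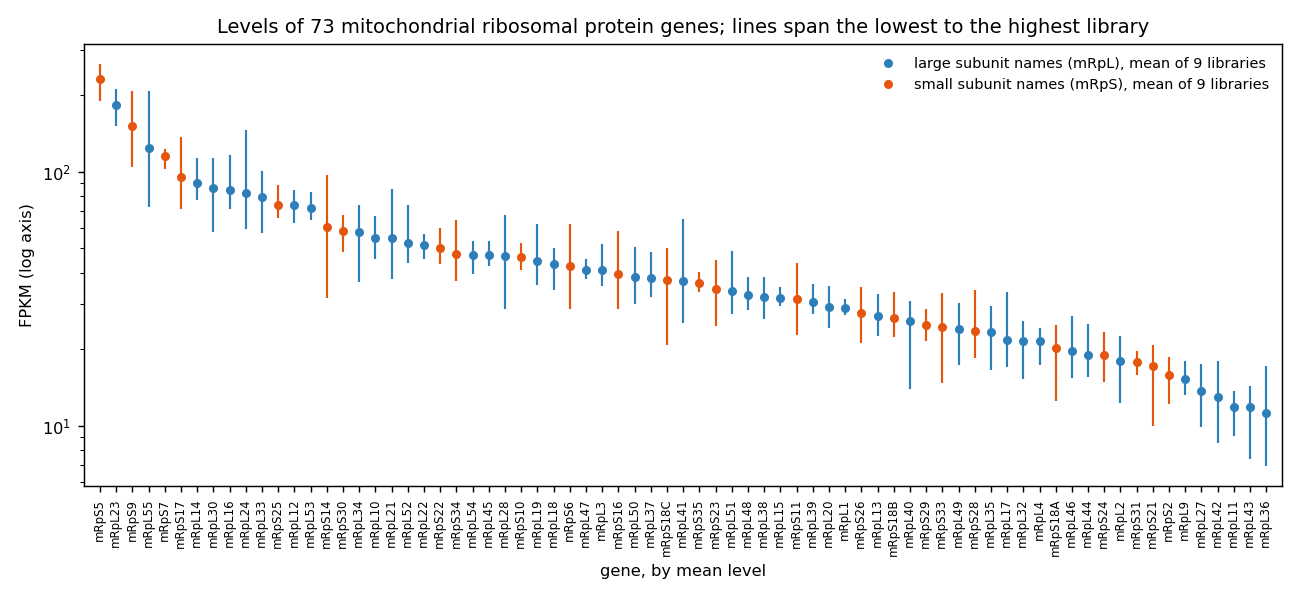
FPKM (log axis) of each of the 73 genes, ordered by the mean over 9 libraries (points, blue for the large subunit, orange for the small); each line spans the lowest to the highest library. Genes of both subunits are spread along most of the order from mRpS5 (231 FPKM) down. The lowest, from mRpL9 (15.3) to mRpL36 (11.2), are all of the large subunit. mRpS14, mRpL55 and mRpL41 have long lines.

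Added over all members, FPKM summed to between 3142 (first mip120 RNAi library) and 3711 (E2F2 RNAi library), or 0.523% to 0.568% of the FPKM of all annotated transcripts. The GFP libraries, at 3441 and 3258, lay inside that range. Members of 1 group differed between its libraries by a median of 0.15 on the log2 scale. That difference had a side: 57 of 73 members were higher in the second mip120 RNAi library than in the first, and 18 of 73 were higher in the second GFP library than in the first. In the mip40 and mip130 groups the numbers were 38 and 39. The widest gap within a group belonged to mRpL41, at 1.33 (log2), with 30.2 and 61 FPKM in the GFP libraries and 65.0 and 25.3 FPKM in the mip40 RNAi libraries. For mRpL41 these 2 groups overlap.

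Few members moved by much against the GFP libraries. Changes were tested with limma on log2(FPKM + 1) over all 7835 genes with at least 1 FPKM in at least 2 libraries, a filter that all 73 members passed, and a call is an adjusted p under 0.05. Of the 292 changes against GFP (73 members in 4 RNAi groups), 88.7% were under 0.5 in size on the log2 scale, and 2 were over 1. Against GFP, 42 members were called in none of the 4 comparisons and 31 in at least 1. Neither these counts nor the sizes above were taken over all genes tested, so they do not set members apart. Of all genes called against GFP, 100% had libraries that did not overlap those of GFP. This also held for 53.1% (mip40), 72% (mip120), 71.7% (mip130) and 79.8% (E2F2) of all genes tested. Lack of overlap, stated for genes below, thus adds no support to a call.

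mip40 RNAi gave 1 called member, which was higher, where 9.2% of all genes tested were called (5.69% higher and 3.51% lower). None was called lower by limma, and the unadjusted p was under 0.05 for 10 members, all higher. mip120 RNAi gave 7 higher and 10 lower, 23.3% of the members, where 36.5% of all genes were called (17.6% higher and 18.9% lower). mip130 RNAi gave 12 higher and 10 lower, 30.1% of the members, where 36.2% of all genes were called (19.3% higher and 16.9% lower). E2F2 RNAi gave 8 higher and 3 lower, 15.1% of the members, where 12% of all genes were called (9.28% higher and 2.72% lower). The E2F2 group has no replicate, and limma takes its spread from the groups that do. The share of members called was thus below that of all genes in each mip group and a little above it in E2F2 RNAi; these differences in share were not tested. The members' median change was 0.05 (log2) in mip40 RNAi, -0.01 in mip120, 0.08 in mip130 and 0.09 in E2F2 RNAi, beside 0.01, -0.04, 0.01 and 0.08 for all genes tested.

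**Figure D2:**
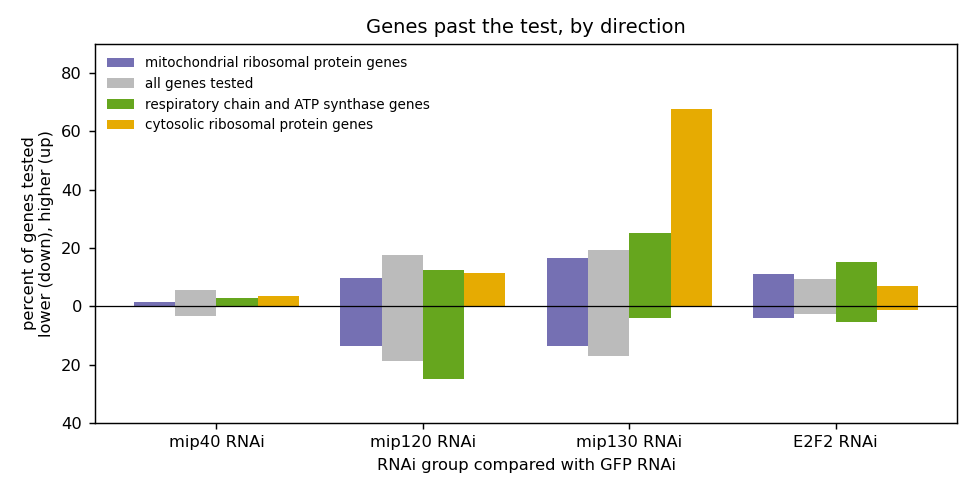
Percent of tested genes called higher (upward bars) or lower (downward bars) than GFP RNAi in each RNAi group. The sets are the mitochondrial ribosomal protein genes (73), all genes (7835), genes of the respiratory chain and ATP synthase (72) and cytosolic ribosomal protein genes (87). The respiratory and cytosolic sets were taken by symbol and include genes named as like a subunit. Members have both upward and downward bars in the mip120, mip130 and E2F2 groups, while cytosolic ribosomal protein genes have no downward bar in the mip groups and reach 67.8% upward in mip130 RNAi.

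These counts lean on single libraries and on the scaling. Shares of all genes called are not set beside most of these refits. The changes in count are therefore not read as particular to members. Without the second GFP library the calls came to 9 for mip120, 8 for mip130 and 1 for E2F2 RNAi, and without the first GFP library to 3 for E2F2. Without the second mip120 library mip120 RNAi gave 9, and without the second mip130 library mip130 RNAi gave 12. The single mip40 call was lost on leaving out either GFP library or either mip40 library, with limma adjusted p between 0.0592 and 0.121. With FPKM rescaled to an equal sum over annotated transcripts, the split of higher and lower became 8 and 7 in mip120, 8 and 11 in mip130 and 3 and 5 in E2F2 RNAi; for all genes in E2F2 RNAi it went from 727 higher and 213 lower to 330 and 490. That rescaling moved the median of all genes in E2F2 RNAi from 0.08 to -0.09. With quantile normalization the split was 4 and 3 in E2F2 RNAi. Over all 8 comparisons, none of 101 called changes of members reversed its sign in 1859 refits under other settings, and 453 of these refits ended the call. The refits reuse the libraries in which the changes were called, so the lack of reversals adds no support to the calls.

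By subunit, the large subunit had 6 higher and 4 lower in mip120 RNAi, 10 and 4 in mip130 and 5 and 1 in E2F2 RNAi. That is 21.3%, 29.8% and 12.8% of its members. The small subunit had 1 higher and 6 lower in mip120 RNAi, 2 and 6 in mip130 and 3 and 2 in E2F2, or 26.9%, 30.8% and 19.2%. Both stand beside the 36.5%, 36.2% and 12% of all genes given above. Of 42 members with a counterpart in bacteria, 12 (28.6%) were called in mip120 RNAi, 16 (38.1%) in mip130 and 9 (21.4%) in E2F2; of 31 mitochondrial additions, 5 (16.1%), 6 (19.4%) and 2 (6.45%) were called. By chromosome, mip120 RNAi called 3 of 12 members on 2L, 3 of 12 on 2R, 7 of 17 on 3L, 0 of 21 on 3R and 4 of 11 on X, where 37.7%, 35.5%, 38.9%, 35.4% and 35.5% of all genes tested on these arms were called. On 3R, 2 members had an unadjusted p under 0.05 by limma in that group. In mip130 RNAi the calls were 4, 4, 6, 3 and 5 in the same order, beside 35.5%, 35.4%, 37.6%, 35.1% and 38.9% of all genes, and in E2F2 RNAi 1, 2, 1, 4 and 3, beside 12.5%, 12%, 12%, 12.2% and 11.4%. The subunits here follow the symbols alone. mRpS30, placed on the large subunit in mammals, is counted as small and is among the falls in mip120 and mip130 RNAi. Differences between these classes were not tested.

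**Figure D3:**
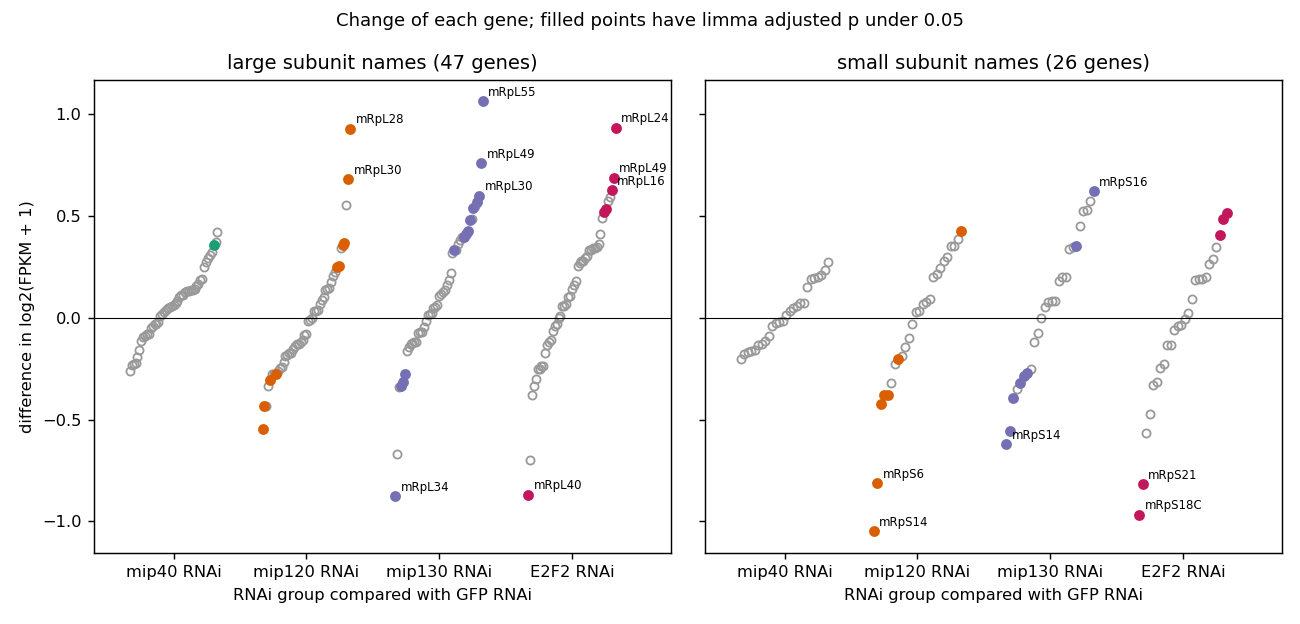
Difference in log2(FPKM + 1) from GFP RNAi for each large-subunit gene (left, 47) and small-subunit gene (right, 26), in order of size within each RNAi group; filled points have a limma adjusted p under 0.05 and those of at least 0.6 in size are named. The lowest point in mip120 RNAi is mRpS14 at -1.05 and the highest in mip130 RNAi is mRpL55 at 1.07; in mip40 RNAi only mRpL18 is filled.

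Among the large-subunit genes, mRpL34 (2R, listed transcription start 11986498) fell most in mip130 RNAi. It encodes the counterpart of bacterial L34, a small protein buried in ribosomal RNA. Its FPKM were 74.0 and 72.6 in the GFP libraries, 65.8 and 69.5 in mip40, 54.5 and 45.5 in mip120, 36.8 and 42.2 in mip130 and 61.4 in the E2F2 library. The 4 libraries of mip120 and mip130 RNAi lay below all others. By limma the change was -0.55 ± 0.10 (SE; adjusted p 0.0071) in mip120 and -0.88 ± 0.10 (adjusted p 0.0014) in mip130 RNAi, and both calls stood in every alternative run. In mip40 RNAi the value was -0.11 ± 0.10 (adjusted p 0.53), and in E2F2 RNAi -0.25 ± 0.13 (adjusted p 0.23).

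mRpL28 (2L, start 4973976), the counterpart of bacterial L28, rose most in mip120 RNAi. It was at 37.7 and 28.8 FPKM in the GFP libraries, 46.1 and 40.1 in mip40, 60.2 and 67.4 in mip120, 47.3 and 49.6 in mip130 and 40.7 in E2F2 RNAi. Every RNAi library was above both GFP libraries, and the mip120 libraries were the highest. The change was 0.93 ± 0.13 (limma adjusted p 0.0025) in mip120 RNAi, a call that stood in every alternative, and 0.54 ± 0.13 (adjusted p 0.021) in mip130, which was lost without the second GFP library or either mip130 library. mRpL30 (X, start 4541910), the counterpart of bacterial L30, had 76.6 and 60.5 FPKM in the GFP libraries and 71.3 and 84.7 in mip40 RNAi. It had 107 and 113 in mip120, 108 and 100 in mip130 and 57.6 in E2F2 RNAi. The mip120 and mip130 libraries stood above all others. Against GFP the changes were 0.68 ± 0.13 (limma adjusted p 0.0072) and 0.60 ± 0.13 (adjusted p 0.013). The mRpL30 call in mip120 RNAi was lost without the second mip120 library (adjusted p 0.0507), and that in mip130 RNAi without the second GFP or the first mip130 library.

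mRpL55 (3R, start 14920624), a protein with no bacterial counterpart, rose most in mip130 RNAi. Its FPKM were 113 and 72.8 in the GFP libraries, 91.2 and 104 in mip40, 104 and 127 in mip120, 175 and 208 in mip130 and 116 in E2F2 RNAi. Only the mip130 libraries stood above the higher GFP library by a wide margin. The change was 1.07 ± 0.21 (limma adjusted p 0.0098) and was lost without the second mip130 library (adjusted p 0.0613). mRpL49 (X, start 12801139), also a mitochondrial addition, was at 17.3 and 17.4 FPKM in the GFP libraries, 23.7 and 23.6 in mip40, 19.8 and 26.0 in mip120, 29.8 and 30.4 in mip130 and 28.6 in E2F2 RNAi. All RNAi libraries were above the GFP libraries. Its changes were 0.37 ± 0.12 (limma adjusted p 0.045) in mip120, 0.76 ± 0.12 (0.0037) in mip130 and 0.69 ± 0.14 (0.028) in E2F2 RNAi; the value in mip40 was 0.42 ± 0.12 (0.069). The mip130 call stood in every alternative, the mip120 call was lost in 7 of 9 fits that left out 1 library, and the E2F2 call was lost without any 1 of the GFP or mip130 libraries. With FPKM rescaled to an equal sum over annotated transcripts the E2F2 call was lost too.

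mRpL18 (2R, start 8643904), the counterpart of the bacterial protein that binds 5S ribosomal RNA, was the only member called in mip40 RNAi. It had 34.1 and 35.2 FPKM in the GFP libraries, 46.2 and 43.3 in mip40, 39.7 and 43.6 in mip120, 47.5 and 50.2 in mip130 and 50.1 in E2F2 RNAi. No RNAi library overlapped the GFP pair. The changes were 0.36 ± 0.07 (limma adjusted p 0.027) in mip40, 0.26 ± 0.07 (0.029) in mip120, 0.48 ± 0.07 (0.0033) in mip130 and 0.52 ± 0.09 (0.015) in E2F2 RNAi. These 4 comparisons share the same GFP libraries. The mip130 call alone stood in every alternative; the mip120 call was lost without either GFP library or the second mip120 library, and the E2F2 call without either GFP library. mRpL2 (3L, start 11113947), whose bacterial counterpart lies at the peptidyl transferase centre, was at 15.9 and 13.5 FPKM in the GFP libraries, 18.3 and 18.5 in mip40, 18.0 and 20.3 in mip120, 22.5 and 22.1 in mip130 and 12.3 in E2F2 RNAi. It rose by 0.36 ± 0.09 (limma adjusted p 0.022) in mip120 and 0.57 ± 0.09 (0.0046) in mip130 RNAi, the latter in every alternative and the former lost without the second GFP or the second mip120 library.

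**Figure D4:**
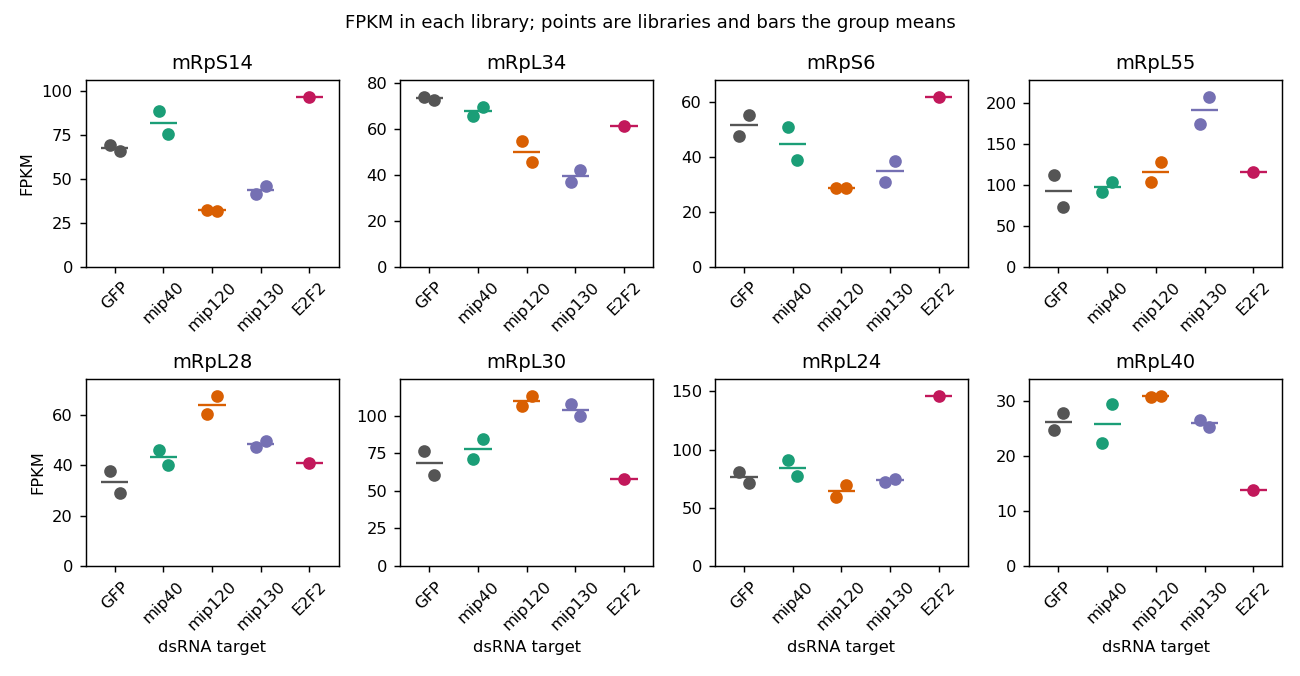
FPKM of 8 members in each of the 9 libraries (points) with group means (bars); each panel has its own axis from 0. mRpS14, mRpL34 and mRpS6 are lowest in the mip120 and mip130 libraries, mRpL28 and mRpL30 are highest there, mRpL55 is highest in the mip130 libraries, and mRpL24 (146 FPKM) and mRpL40 (13.9 FPKM) stand apart in the E2F2 library.

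Smaller changes made up the rest of the large-subunit calls. mRpL21, which takes part in early assembly of the bacterial subunit, had 54.7 and 57.9 FPKM in the GFP libraries and 37.8 and 45.3 in mip120 RNAi (-0.43 ± 0.12, limma adjusted p 0.034). mRpL48 fell by 0.27 ± 0.06 in mip120 and by 0.28 ± 0.06 in mip130 RNAi, and mRpL23 by 0.31 ± 0.10 and by 0.34 ± 0.10. mRpL10, the counterpart of the protein at the base of the ribosomal stalk, fell by 0.32 ± 0.09 in mip130 RNAi. In the same group mRpL44, with a fold like that of ribonuclease III, rose by 0.43 ± 0.13, mRpL13 by 0.41 ± 0.10, mRpL20 by 0.40 ± 0.11 and mRpL14 by 0.33 ± 0.11. mRpL39, which resembles a threonyl-tRNA synthetase, rose by 0.25 ± 0.08 in mip120 RNAi. Each of these calls was lost on leaving out at least 1 library, and that of mRpL14 was also lost under most settings, in 15 of 19 refits. Without the second GFP library mRpL21, mRpL23 and mRpL48 lost theirs in mip120 RNAi, and mRpL10, mRpL13, mRpL20, mRpL23, mRpL44 and mRpL48 lost theirs in mip130; limma adjusted p lay between 0.0516 and 0.137, and between 0.0599 and 0.176, over all members that lost a call there. mRpL39 lost its call in 7 of 9 fits that each left out 1 library.

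In the small subunit, mRpS14 (X, start 19373950) had the widest range over groups of all 73 members. It encodes the counterpart of bacterial S14, in the head of the small subunit. Its FPKM were 69.2 and 65.6 in the GFP libraries, 88.4 and 75.5 in mip40, 32.4 and 31.7 in mip120, 41.2 and 45.8 in mip130 and 96.6 in E2F2 RNAi. The mip120 and mip130 libraries were below all others without overlap, and the E2F2 library was the highest. mRpS14 stood at 47.5% of the GFP mean in mip120 RNAi and at 64.6% in mip130. The changes were -1.05 ± 0.09 (limma adjusted p 0.00034) and -0.62 ± 0.09 (0.0033), both in every alternative, and 0.51 ± 0.11 (0.033) in E2F2 RNAi, which was lost without any 1 of the GFP or mip120 libraries. The E2F2 call was also lost with the rescaling to annotated transcripts and with quantile normalization. In mip40 RNAi the change was 0.27 ± 0.09 (limma adjusted p 0.11).

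mRpS17 (2R, start 20061958), whose bacterial counterpart binds ribosomal RNA early in assembly, followed the same order of groups. It was at 98.9 and 95.7 FPKM in the GFP libraries, 108 and 109 in mip40, 78.2 and 71.1 in mip120, 77.2 and 82.1 in mip130 and 137 in E2F2 RNAi. The groups did not overlap the GFP pair. Changes were -0.38 ± 0.07 (limma adjusted p 0.0058) in mip120, -0.29 ± 0.07 (0.018) in mip130 and 0.49 ± 0.08 (0.015) in E2F2 RNAi, the first in every alternative. The mip130 call was lost without either GFP library or the first mip130 library, and the E2F2 call without the second GFP library. The E2F2 call was also lost with FPKM rescaled to an equal sum over annotated transcripts. mRpS30 (X, start 15680086), which is placed on the large subunit in mammals, had 67.5 and 63.3 FPKM in the GFP libraries, 67.3 and 61.2 in mip40, 48.4 and 48.3 in mip120, 51.1 and 53.4 in mip130 and 66.3 in E2F2 RNAi. It fell by 0.43 ± 0.07 in mip120 (limma adjusted p 0.0039, in every alternative) and by 0.32 ± 0.07 in mip130 RNAi (0.013), the latter lost without the first GFP or the first mip130 library. mRpS34 fell by 0.38 ± 0.09 and by 0.39 ± 0.09 in the same groups; both calls were lost without the second GFP library, and also without the first mip120 and the second mip130 library respectively.

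Other small-subunit genes rose. mRpS5 (3L, start 24530335), the most abundant member, had 193 and 189 FPKM in the GFP libraries, 225 and 211 in mip40, 250 and 265 in mip120, 246 and 243 in mip130 and 254 in E2F2 RNAi. All RNAi libraries were above both GFP libraries. It rose by 0.43 ± 0.06 (limma adjusted p 0.0028, in every alternative) in mip120, 0.35 ± 0.06 (0.0069, in every alternative) in mip130 and 0.41 ± 0.08 (0.023) in E2F2 RNAi, the last lost without either GFP library. The E2F2 call of mRpS5 was also lost with the rescaling to annotated transcripts and with quantile normalization. mRpS16 was at 35.4 and 34.1 FPKM in the GFP libraries, 28.8 and 33.1 in mip40, 37.9 and 48.7 in mip120, 58.1 and 50.3 in mip130 and 29.5 in E2F2 RNAi. Its rise of 0.62 ± 0.13 (limma adjusted p 0.013) in mip130 RNAi was lost without the second GFP library or the first mip130 library. mRpS7 fell by 0.20 ± 0.06 in mip120 RNAi and mRpS10 by 0.27 ± 0.08 in mip130, and both calls were lost in 6 of 9 fits that left out 1 library.

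mRpS6 (3L, start 4364550, forward strand), the counterpart of a protein on the platform of the bacterial small subunit, fell as a gene and also changed between its transcripts. Summed over transcripts it had 47.5 and 55.5 FPKM in the GFP libraries, 50.8 and 39.0 in mip40, 28.9 and 28.7 in mip120, 31.0 and 38.6 in mip130 and 62.0 in E2F2 RNAi. The mip120 and mip130 libraries were below all others. The changes were -0.81 ± 0.15 (limma adjusted p 0.0071, in every alternative) and -0.56 ± 0.15 (0.03); the mip130 call was lost without the second GFP library, the first mip130 library or either mip120 library.

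The table lists 2 known transcripts of mRpS6 that begin at the same base. In the shorter form the first exon ends at 4364585, and in the longer form it runs on to 4364745. The shorter form was at 27.7 and 42.7 FPKM in the GFP libraries, 35.3 and 23.2 in mip40, 0.0052 and 2.31 in mip120, 3.55 and 4.04 in mip130 and 43.2 in E2F2 RNAi. It was therefore low in the mip120 and mip130 libraries and in no other. The longer form was at 19.8 and 12.8 FPKM in the GFP libraries, 15.5 and 15.9 in mip40, 28.8 and 25.3 in mip120, 27.5 and 34.6 in mip130 and 18.8 in E2F2 RNAi. Of the gene's FPKM, the shorter form made up 58.3% and 76.9% in the GFP libraries and 69.6% and 59.4% in mip40. It made up 0.018% and 8.04% in mip120 RNAi, 11.4% and 10.5% in mip130 and 69.7% in E2F2. In a limma fit over 16220 transcripts, in which 10.9% of transcripts were called in mip120 RNAi and 11.2% in mip130, the shorter form changed by -4.28 ± 0.56 (adjusted p 0.011) and -2.89 ± 0.56 (0.031). The fit by transcript was added after the values had been seen. FPKM of transcripts that share exons are estimated together, so a rise in one and a fall in the other are not independent measurements.

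**Figure D5:**
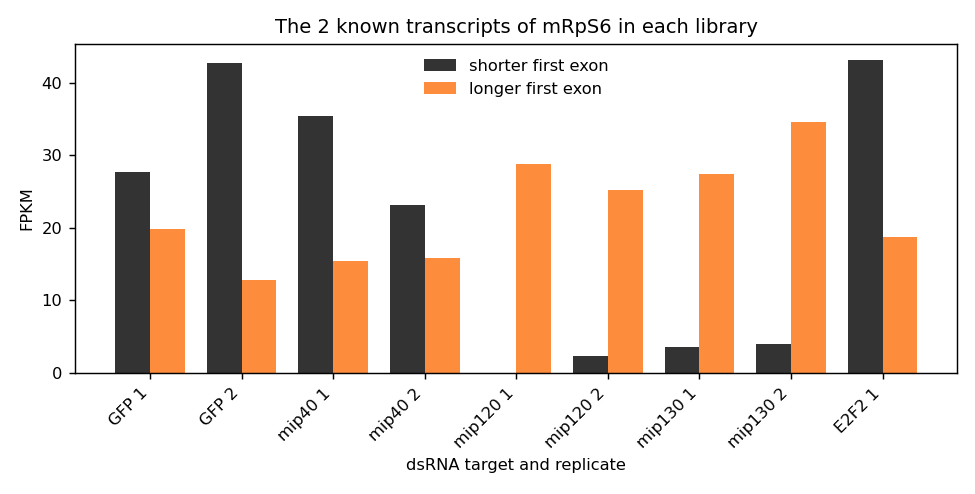
FPKM of the 2 known transcripts of mRpS6 in each library, with the shorter first exon (dark bars) or the longer one (orange bars). The dark bars stand at 23.2 to 43.2 FPKM in the GFP, mip40 and E2F2 libraries and at 4.04 or less in the mip120 and mip130 libraries, where the orange bars stand at 25.3 to 34.6.

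By transcript, 95 transcripts of members were tested. None was called in mip40 RNAi by limma, where 1.2% of all transcripts were called and 7 of the 95 had an unadjusted p under 0.05. In mip120 RNAi 4 were higher and 6 lower, in mip130 RNAi 9 and 4, and in E2F2 RNAi 1 was higher, beside 2.0% of all transcripts called in E2F2. For mRpL21, which has 2 transcripts with the same first exon, the form at 35.3 and 39.1 FPKM in the GFP libraries was at 24.8 and 23.6 in mip120, 25.5 and 21.2 in mip130 and 69.6 in E2F2 RNAi; its other form showed no call in these groups. For mRpS16, the transcript starting at 10061089 was at 23.1 and 24.4 FPKM in the GFP libraries, 34.4 and 48.7 in mip120 and 48.4 and 47.0 in mip130 RNAi, with changes of 0.76 ± 0.16 (limma adjusted p 0.037) and 0.98 ± 0.16 (0.022). Of 4 transcripts of mRpL23, 1 was listed at 0 in both GFP libraries and at 3.31 and 5.87 FPKM in mip130 RNAi, where the gene as a whole fell. Of the 73 members, 53 had a single transcript in the table.

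The largest changes in E2F2 RNAi were those of mRpS18C, mRpL24, mRpL40 and mRpS21. mRpL24 (2L, start 4945361), whose bacterial counterpart starts assembly of the large subunit, was at 81.1 and 71.0 FPKM in the GFP libraries, 90.9 and 77.4 in mip40, 59.2 and 69.2 in mip120, 71.9 and 75.1 in mip130 and 146 in the E2F2 library. The E2F2 library was far above all others, by 0.93 ± 0.14 against GFP (limma adjusted p 0.011), a call that stood in every alternative. mRpL40 (3R, start 7233630) was at 24.6 and 27.8 FPKM in the GFP libraries, 22.3 and 29.4 in mip40, 30.7 and 30.9 in mip120, 26.6 and 25.3 in mip130 and 13.9 in E2F2 RNAi, a change of -0.87 ± 0.15 (limma adjusted p 0.018), lost without the second GFP library. mRpS18C (3R, start 26249696), a counterpart of bacterial S18, was at 42.3 and 41.1 FPKM in the GFP libraries and at 32.5 to 50.2 in the mip libraries. It was at 20.8 FPKM in E2F2 RNAi, below all other libraries (-0.97 ± 0.20, limma adjusted p 0.029). mRpS21 (3R, start 9207531) was at 18.8 and 17.8 FPKM in the GFP libraries, at 16.6 to 20.8 in the mip libraries and at 9.92 in the E2F2 library (-0.82 ± 0.14, limma adjusted p 0.015). Also higher in E2F2 RNAi were mRpL16 (73.2 and 76.6 FPKM in the GFP libraries, 116 in the E2F2 library) and mRpL19 (42.2 and 43.3, and 62.5). mRpL19 lost its call with the rescaling to annotated transcripts, and mRpL16 and mRpL19 lost theirs with quantile normalization. Without the second GFP library only mRpL24 was called in E2F2 RNAi, and without the first only mRpL24, mRpL40 and mRpS17. By the steps between low values, 1 fragment was worth about 1.63 times as much FPKM in the E2F2 library as in the first GFP library, against 0.786 to 1.45 times in the others. This estimate is rough, since 12.6% of the ratios in the E2F2 library lay within 2% of their mode, against 21% to 31.2% in the others; the part of depth in these changes was not tested.

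Set against the mean of the mip groups, E2F2 RNAi had 11 members higher and 8 lower, where 29.2% of all genes were called (19.5% higher and 9.73% lower). mRpL24 differed by 0.98 ± 0.12 and mRpS14 by 0.98 ± 0.10, followed by mRpL21 (0.81 ± 0.13) and mRpS6 (0.79 ± 0.16), with limma adjusted p of 0.0029, 0.0014, 0.0072 and 0.015. The largest negative differences were those of mRpL40 (-0.93 ± 0.14), mRpS18C (-0.86 ± 0.17), mRpS33 (-0.82 ± 0.20) and mRpS21 (-0.80 ± 0.12). All but mRpS33 kept their calls in every alternative; mRpS33 lost its call without the second mip40, second mip120 or first mip130 library. With the rescaling to annotated transcripts the split was 8 higher and 15 lower, with quantile normalization 8 and 13, and with median-ratio scaling 8 and 12; the rescaling moved the median of all genes from 0.09 to -0.04.

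The mip groups were also compared with each other. mip120 and mip40 RNAi differed in 4 members higher and 11 lower in mip120, where 25.5% of all genes were called (11.2% higher and 14.3% lower). mRpS14 differed by -1.32 ± 0.09 (limma adjusted p 0.00044) and mRpS17 by -0.53 ± 0.07 (0.0035), both in every alternative. mRpS6 (-0.61 ± 0.15) and mRpL21 (-0.55 ± 0.12) were lower and mRpL28 (0.56 ± 0.13), mRpL30 (0.49 ± 0.13), mRpS16 (0.46 ± 0.13) and mRpS5 (0.24 ± 0.06) higher, and each of these 6 calls was lost without the second mip120 library and also without the first mip40 library. The split became 8 higher and 6 lower with the rescaling and 5 and 8 with median-ratio scaling, and the rescaling moved the median of all genes from -0.03 to 0.08. Leaving out single libraries gave 2 to 15 called members.

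mip130 and mip40 RNAi differed in 4 members higher and 9 lower in mip130, where 25.0% of all genes were called (12.3% higher and 12.7% lower). mRpS14 (-0.90 ± 0.09, limma adjusted p 0.0029) and mRpL34 (-0.76 ± 0.10, 0.0073) were lower in every alternative. mRpL21 (-0.45 ± 0.12) and mRpS17 (-0.44 ± 0.07) were lower too, and mRpL55 (0.96 ± 0.21), mRpS16 (0.79 ± 0.13), mRpL51 (0.59 ± 0.13) and mRpS23 (0.58 ± 0.16) were higher; without the second mip130 library, and also without the first mip40 library, these 6 lost their calls, with limma adjusted p from 0.0513 to 0.175. The split became 6 and 7 with the rescaling. Leaving out single libraries gave 2 to 14 calls.

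mip130 and mip120 RNAi differed in 3 members, all higher in mip130, where 8.32% of all genes were called (4.94% higher and 3.38% lower). Limma called none lower, and 4 had an unadjusted p under 0.05 in that direction. mRpL33 was at 57.3 and 69.5 FPKM in mip120 and 93.4 and 101 in mip130 RNAi (0.61 ± 0.14, limma adjusted p 0.046). mRpL51 was at 28.5 and 28.8 FPKM, and 38.6 and 48.5 (0.58 ± 0.13, 0.046), and mRpS14 differed by 0.43 ± 0.09 (0.037). All 3 calls were lost without any 1 of the mip120 and mip130 libraries, with adjusted p between 0.0538 and 0.228.

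The other 30 members, 18 of the large subunit and 12 of the small, had mean levels from 15.3 to 90.4 FPKM and a median change against GFP of 0.14 in size (log2). Apart from mRpL14 in mip130 RNAi none was called against GFP, with changes between -0.67 (mRpL41 in mip130) and 0.53 (mRpS11 in mip130). They include mRpL3 and mRpL22, counterparts of core large-subunit proteins, the stalk protein mRpL12, mRpL45, which holds the ribosome to the inner membrane in mammals, and mRpS29, the counterpart of mammalian DAP3. mRpL12 was at 75.1 and 72.6 FPKM in the GFP libraries and at 62.9 to 84.7 in the RNAi libraries, around the GFP pair. The smallest ranges over groups were those of mRpL1 (0.18 log2), mRpL4 (0.18) and mRpL15 (0.19). mRpL1 was at 30.6 and 29.3 FPKM in the GFP libraries, 31.2 and 31.5 in mip40, 27.2 and 27.8 in mip120, 28.1 and 28.9 in mip130 and 27.6 in E2F2 RNAi, with libraries of each group close together.

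A pair of mitochondrial ribosomal proteins have symbols outside the mRp names. tko, the counterpart of bacterial S12, was at 101 and 95.9 FPKM in the GFP libraries, 88.9 and 119 in mip40, 127 and 136 in mip120, 125 and 105 in mip130 and 80.5 in E2F2 RNAi. bonsai, the counterpart of S15, was at 44.6 and 33.4 FPKM in the GFP libraries and at 31.6 to 51.7 in the others. Neither was called against GFP.

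The counts in the next lists are small and are read beside the 9.2%, 36.5%, 36.2% and 12% of all genes called in mip40, mip120, mip130 and E2F2 RNAi. Unlike for members, refits under other settings are not given for genes of these lists or for the neighbouring genes further below. Their calls are therefore not to be read as firmer than those of members, and those in E2F2 RNAi rest on 1 library. Of 7 translation factors of mitochondria, 1 was lower in mip40 RNAi, 1 in mip120 and 2 in mip130, and 2 were higher in E2F2; the median changes were 0.01, -0.25, -0.26 and 0.28. EfTuM, the elongation factor that brings aminoacyl-tRNA to the mitochondrial ribosome, was at 92.2 and 83.4 FPKM in the GFP libraries, 52.4 and 52.8 in mip40, 33.0 and 28.0 in mip120, 50.2 and 51.0 in mip130 and 124 in E2F2 RNAi. The mip libraries were all below the GFP pair and the E2F2 library above it. The changes were -0.73 ± 0.09 (limma adjusted p 0.0045), -1.50 ± 0.09 (7.5e-05), -0.78 ± 0.09 (0.0013) and 0.50 ± 0.11 (0.033). CG4447, listed in the reference as the recycling factor mRRF1, was at 14.9 and 14.3 FPKM in the GFP libraries, 11.2 and 11.1 in mip130 (-0.36 ± 0.10, limma adjusted p 0.032) and 23.9 in E2F2 RNAi (0.68 ± 0.12, 0.02).

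In a list of 16 genes, mitochondrial tRNA synthetases with Slimp added, none was called in mip40 RNAi by limma. In this list 1 was lower in mip120, 3 were higher and 1 lower in mip130, and 1 was higher in E2F2. CG10092 (ArgRS-m) fell by 0.56 ± 0.11 in mip120 and by 0.41 ± 0.11 in mip130 RNAi. The 3 higher in mip130 RNAi included Aats-pro (ProRS-m) and CG6796 (AsnRS-m), and the change of Aats-pro was larger in size than that of CG10092. Of 14 factors of mitochondrial DNA and RNA, 1 was higher in mip40 RNAi, 4 higher and 2 lower in mip120, 1 and 2 in mip130 and 1 and 1 in E2F2. mtSSB, which coats single-stranded mitochondrial DNA, was at 188 and 199 FPKM in the GFP libraries and 260 and 268 in mip130 RNAi (0.45 ± 0.07, limma adjusted p 0.004), while tam, the mitochondrial DNA polymerase, was at 5.19 and 4.75 and then 2.98 and 2.57 (-0.66 ± 0.12, 0.0067). Of 14 import and folding genes, 2 were higher in mip40 RNAi, 4 in mip120, 4 in mip130 with 1 lower, and 1 in E2F2. The chaperonin Hsp60 was at 172 and 179 FPKM in the GFP libraries and 258 and 261 in mip120 RNAi (0.56 ± 0.07, limma adjusted p 0.0011).

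The respiratory chain and ATP synthase include the complexes for which this ribosome makes core subunits. Of 72 tested genes listed by symbol under these complexes, 2 were higher in mip40 RNAi and 9 higher and 18 lower in mip120. In mip130 these were 18 and 3 and in E2F2 11 and 4, with medians of 0.03, -0.07, 0.17 and 0.05 over the 4 groups. The shares called were 2.78%, 37.5%, 29.2% and 20.8%, beside the same 9.2%, 36.5%, 36.2% and 12% of all genes. The list also holds genes named as like a subunit, such as CG18193 (COX7AL) and CG31477 (ATPsynepsilonL), and CG14898 (Sdhaf3). CG18193 was called in every RNAi group, and CG31477 in mip130 and E2F2 RNAi. The calls in mip40 RNAi were those of CG18193 and l(1)G0230. Counts without such genes were not made. l(1)G0230 (ATPsyndelta), a subunit of ATP synthase, was at 57.6 and 53.0 FPKM in the GFP libraries, 242 and 194 in mip40, 165 and 170 in mip120, 243 and 273 in mip130 and 254 in E2F2 RNAi. Every RNAi library was above the GFP pair, with changes of 1.95 ± 0.12, 1.58 ± 0.12, 2.20 ± 0.12 and 2.18 ± 0.14 (limma adjusted p 0.00015, 0.00018, 4.8e-05 and 0.00047). CG11455 (ND-15), a subunit of complex I, was at 436 and 413 FPKM in the GFP libraries, 202 and 178 in mip120 (-1.16 ± 0.11, limma adjusted p 0.00041), 266 and 272 in mip130 (-0.66 ± 0.11, 0.0047) and 751 in E2F2 RNAi (0.82 ± 0.13, 0.013).

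Genes listed by symbol for the cytosolic ribosome were mostly higher in mip130 RNAi. The list takes every symbol starting RpL or RpS, and sta. It thus also holds RpL24-like, RpL7-like and RpLP0-like, as well as RpS19b, 1 of the 3 called in mip40 RNAi. Of 87 tested genes, 3 were higher in mip40 RNAi, 10 in mip120, 59 in mip130 and 6 in E2F2, and 1 was lower, in E2F2; the median changes were 0.18, 0.16, 0.51 and 0.17. In mip130 RNAi this was beside 12 higher and 10 lower of the 73 mitochondrial genes, with a median of 0.08. RpL18, a cytosolic large-subunit protein, was at 260 and 222 FPKM in the GFP libraries and 687 and 662 in mip130 RNAi (1.48 ± 0.14, limma adjusted p 0.00064). The difference between the lists was not tested.

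Many members have the start of another gene close by. Of 73 members, 57 (78.1%) had a 5′ end of a gene on the opposite strand within 1000 bp of their own, beside 55.3% of tested genes, at a median distance of 274 bp. Of the called members with a tested neighbour of this kind, the neighbour was called in the same direction for 2 of 12 (16.7%) and in the opposite direction for 1 of 12 (8.33%) in mip120 RNAi, beside 22.6% and 15.4% over all such pairs in the table. In mip130 RNAi these were 3 (21.4%) and 2 (14.3%) of 14, beside 21.1% and 16.9%, and in E2F2 RNAi 0 of 6, beside 11.9% and 2.96%. The shares of members are thus near or below those of all pairs, and the pairs named next are given for their values. mRpL34 and Dg (dystroglycan), with 5′ ends 433 bp apart, both fell: Dg was at 101 and 116 FPKM in the GFP libraries, 74.4 and 69.5 in mip120 (-0.59 ± 0.08, limma adjusted p 0.0024) and 78.8 and 74.6 in mip130 RNAi (-0.50 ± 0.08, 0.0053). mRpS30 and Paf-AHalpha, 474 bp apart, both fell as well, Paf-AHalpha by 0.50 ± 0.06 (limma adjusted p 0.001) and by 0.40 ± 0.06 (0.0033). mRpS6 and Cip4, 423 bp apart, both fell in mip130 RNAi, where Cip4 fell by 0.28 ± 0.08. In mip120 RNAi mRpS17 fell while Nop60B, 396 bp away, rose by 0.36 ± 0.07. In mip130 RNAi mRpL2 and mRpS16 rose while their neighbours fell, fd68A (72 bp) by 0.40 ± 0.08 and cg (42 bp) by 0.23 ± 0.07. No label or header states the strand setting of the libraries, so reads from overlapping genes on opposite strands cannot be told apart.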

How the data were processed

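RNA of 9 libraries was analysed. The authors deposited FPKM for 37161 transcripts. Tools listed in the submitters' processing notes are Cufflinks, Cuffnorm, TopHat2 (2.0.12) and Bowtie (1.1.1). No source used here gives the genome build, annotation or strand setting, and positions are as in the table. Its 4 columns of group means were left out. Each gene's value is the sum of its known transcripts, new isoforms and other overlaps. Tests ran on 7835 genes that reached 1 FPKM in 2 or more libraries. The model was limma (3.58.1, R 4.3.3), fitted to log2(FPKM + 1) of the 9 libraries in 5 groups with an intensity trend. Benjamini-Hochberg adjustment over all tested genes was made within each of 8 comparisons, at 0.05; 4 residual and 2.77 prior degrees of freedom resulted. The scale understates changes of genes with low values. Errors are SE for changes. The script was tested on simulated data. FPKM hold no counts, so depth is unknown, no count test was run and no interval from counts can be given.

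Members named are, per comparison with GFP, up to 10 called in each direction whose libraries do not overlap (up to 4 in other comparisons), the 5 highest and 5 lowest by level, and the 3 with the widest and narrowest range over groups; from each related list up to 3 called genes per comparison were eligible. mRpL14, the change of mRpS5 in mip130 RNAi, the transcripts and the neighbours were chosen after values were seen, as were the classes by bacterial counterpart. The members and gene lists were chosen with earlier results of these data known. Older symbols were matched through the reference tables. Alternatives covered the pseudocount (0.1), the filter (none, or 5 FPKM), 3 scalings, known transcripts alone, moderation without trend, the compared groups alone, a replicate block and leaving out each library.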

Additional observations from a re-analysis of the deposited data

Results flagged for a closer look

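Outside the genes tested, 3 transcripts of no annotated gene on the mitochondrial genome, starting at positions 13, 201 and 14905, were listed at 478.2, 827 and 2384 FPKM in the E2F2 RNAi library and at 0 in the other 8 libraries, the GFP controls included. How the transcripts of each library were assembled and quantified is not known here in enough detail to read the listed 0 values as absence of this RNA. RNA of the mitochondrial genome was not used in any comparison, and with 1 library this has no replicate check.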

How the results depend on the processing

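Over 76 results of named members, 1406 alternatives gave no reversal: 1103 kept the call and 303 lost it, and 24 results kept it throughout. These alternatives reuse the libraries that gave the calls, so the lack of reversals is no independent support. Called members left the main count by more than 1.5 times as follows; the cause was not tested. mip40 against GFP gave 0 with only the groups compared (7 at unadjusted p under 0.05) and 0 with the replicate block (8). E2F2 gave 6 without the filter, 7 with quantile normalization and 5 with the block. mip130 against mip40 gave 7 without the filter and 8 with only the groups compared. mip120 against mip40 gave 7, 7 and, with the block, 6. mip130 against mip120 gave 0 without the filter, with known transcripts alone, without trend, with only the groups compared and with the block (15 to 18 at unadjusted p under 0.05). Leaving out single libraries gave 0 to 2 calls for mip40, 9 to 17 for mip120, 8 to 22 for mip130 and 1 to 14 for E2F2 against GFP. It gave 2 to 14 for mip130 against mip40, 0 to 3 for mip130 against mip120, 2 to 15 for mip120 against mip40 and 13 to 21 for E2F2 against the mip mean; a lone library is assumed to vary like the other groups. Libraries of equal replicate number showed no shared deviation (correlation of deviations -0.135 to 0.021). This cannot exclude a shared culture or day with a small effect, which the labels do not state. With the block, mip120 gave 12, mip130 18, mip130 against mip40 10 and E2F2 against the mip mean 13. Over all genes, calls in mip40 RNAi went from 721 to 188 with only the groups compared, and in E2F2 RNAi from 940 to 411 with the block. Depth is unknown, so precision at low FPKM cannot be given.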
